A study of Mus musculus with 12 samples.

Results

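The genes described here serve the endoplasmic reticulum (ER), the compartment in which secreted proteins are folded. The list held 46 genes: 12 chaperones and folding factors, 9 disulfide enzymes, 13 genes of the translocon and signal peptidase, 9 genes of ER-associated degradation and 3 stress sensors. Each gene was read from the probe set that carried its symbol alone and, where there were several, had the highest mean over all 12 arrays. This gave 44 measured members among 22180 measured genes. Pdia2 and Pdia4 had no probe set of this kind and were not analysed here.

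Expression was measured on Affymetrix arrays in 4 groups of mouse pancreatic cells, 3 arrays each. Acinar cells make the digestive enzymes of the pancreas; those of adult and of embryonic animals were released by digestion and taken for RNA without culture. ADM samples were in acinar-to-ductal metaplasia, a change of acinar cells toward a duct-like form, after 7 days in 3D collagen and treatment with 50 ng/ml TGF-alpha, which activates the EGF receptor. The tumor cells, of low passage, grew in standard medium, with no added ligand named in the labels. The strain of every sample, tumor cells included, was labelled C57Bl6/J wildtype. The labels give no ages, no tumor driver alleles and no statement on whether replicates came from separate animals or cultures. The p-values therefore reflect the spread between these samples, which may be technical. The 3 tumor samples carry the same code with a different number and may be 1 line. Both cultured groups differ from both fresh groups in cell state and in culture, which cannot be told apart.

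Acinar cells make and export large amounts of digestive enzyme, and each enzyme passes through the ER. The translocon carries the growing chain through the ER membrane and signal peptidase removes its signal sequence. Chaperones and disulfide enzymes then fold the chain, and chains that fail are returned to the cytosol and destroyed by ER-associated degradation. Atf6, Ern1 (IRE1) and Eif2ak3 (PERK) sense unfolded protein and start the unfolded protein response, which raises transcription of many of the genes listed here.

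Many promoters that answer this response carry the ER stress element, which is CCAAT and CCACG with 9 bases of any kind between them. It was searched on both strands in RefSeq promoters of mouse build GRCm38.p6, each 300 bases long, from 250 bases before a gene's start to 50 after it. Of the members, 37 had a promoter in the table, and 10 of those 37 (27.03%) held the element. Over all promoters 39 of 32851 (0.119%) held it, and counted by gene, as for the members, 37 of 27025 (0.137%) did. The 10 are shown because they span 3 of the 5 roles (chaperones, disulfide enzymes and degradation) and include both the members that changed most and some that were not called. Capitals mark the element, read as CGTGG and ATTGG around the spacer where it lies on the opposite strand, with 20 bases on either side.
Ero1b, chr13:12565662-12565720, plus strand: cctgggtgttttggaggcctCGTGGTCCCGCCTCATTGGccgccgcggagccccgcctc
Derl3, chr10:75893222-75893280, plus strand: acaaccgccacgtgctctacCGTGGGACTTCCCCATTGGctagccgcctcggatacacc
Syvn1, chr19:6046512-6046570, plus strand: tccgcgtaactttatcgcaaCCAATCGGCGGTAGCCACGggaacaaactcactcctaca
Creld2, chr15:88819500-88819558, plus strand: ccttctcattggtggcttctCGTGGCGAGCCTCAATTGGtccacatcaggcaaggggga
Dnajc3, chr14:118937807-118937865, plus strand: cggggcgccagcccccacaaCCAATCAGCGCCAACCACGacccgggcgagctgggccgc
Hspa5, chr2:34772005-34772063, plus strand: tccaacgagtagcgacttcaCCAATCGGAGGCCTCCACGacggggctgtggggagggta
Pdia6, chr12:17266471-17266529, plus strand: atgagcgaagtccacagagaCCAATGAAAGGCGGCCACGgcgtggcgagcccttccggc
Hsp90b1, chr10:86705513-86705676, minus strand: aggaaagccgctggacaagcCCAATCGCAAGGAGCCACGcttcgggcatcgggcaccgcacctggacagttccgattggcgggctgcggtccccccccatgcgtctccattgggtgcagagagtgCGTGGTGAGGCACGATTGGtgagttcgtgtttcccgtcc
Calr, chr8:84847055-84847113, minus strand: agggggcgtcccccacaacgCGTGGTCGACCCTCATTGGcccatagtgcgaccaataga
Canx, chr11:50325780-50325838, minus strand: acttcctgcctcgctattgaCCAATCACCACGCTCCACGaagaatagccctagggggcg

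Ero1b, Derl3, Creld2 and Calr carried the element on the opposite strand, Syvn1, Dnajc3, Hspa5, Pdia6 and Canx on the strand of the gene, and Hsp90b1 once on each. A shorter related element, ATTGG and CCACG with 1 base of any kind between them, was searched on both strands after the data were seen. It occurred in 12 of 32851 promoters (0.0365%), or 12 of 27025 genes (0.0444%), among them the members Dnajb11 and Herpud1. Matches are shown where they end within the 250 bases before the gene's start, which holds for Herpud1 but not for Dnajb11. Capitals mark the Herpud1 match.
Herpud1, chr8:94386357-94386407, plus strand: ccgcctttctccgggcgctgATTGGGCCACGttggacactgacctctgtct

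The letters TGACGTGG, known as the unfolded protein response element, were searched at the same time. They were in the promoters of 0 of 37 members, against 193 of 27025 genes (0.714%), or 222 of all promoters (0.676%). A match describes these letters in this window and is not evidence of a bound site.

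The 75th percentile of the values lay at 5.04 to 5.10 on adult arrays and between 5.39 and 5.51 on the others, while the median ran the other way, from 3.66 to 3.72 in adult and from 3.48 to 3.57 in all other samples. The adult values were thus spread less widely. Of 10 measured acinar markers, all 10 were above background on average in adult, embryonic and ADM samples. Background was 3.62, a level set by olfactory and vomeronasal receptor genes. In tumor cells 5 of the 10 were above it, and Cpb1, Prss2, Cel, Amy2b and Ptf1a were not. The mean of the acinar markers ran from 11.6 to 11.7 on adult, 10.9 to 11 on embryonic, 8.03 to 8.90 on ADM and 3.61 to 3.85 on tumor arrays. Markers of fibroblasts and stellate cells, 10 of 10 above background in the first 3 groups, averaged 5.23 to 5.52 on adult, 8.87 to 9.49 on embryonic, 7.48 to 8.83 on ADM and 3.63 to 3.77 on tumor arrays, where 4 of 10 were above background. Ductal markers averaged 7.33 to 7.35 on adult, 7.87 to 8.09 on embryonic, 9.72 to 9.79 on ADM and 7.70 to 7.83 on tumor arrays. Above background were 8, 8, 9 and 7 of 9 in that order, with Cftr and Cldn4 not above it in tumor cells. Tumor cells differed from adult cells in both directions, with 5 ductal markers higher and 4 lower, from -2.99 to 4.31. Endocrine markers averaged 6.14 to 6.88 on adult, 9.10 to 9.35 on embryonic, 5.64 to 6.33 on ADM and 4.07 to 4.41 on tumor arrays, with 7, 9, 7 and 7 of 9 above background. Endothelial markers averaged 5.11 to 5.19, 6.77 to 7.08, 4.82 to 5.04 and 3.48 to 3.60 in the same order, with 10, 10, 9 and 4 of 10 above background. Mesothelial markers averaged 3.98 to 4.35, 6.33 to 7.07, 5.13 to 5.46 and 4.96 to 5.47, with 4, 5, 3 and 4 of 5 above background. Plasma cells are another cell type rich in ER. Their 7 markers averaged 3.96 to 4.45, 4.35 to 4.46, 4.52 to 4.64 and 4.28 to 4.68, with 4 above background in adult cells and 3 in each other group. Jchain, Tnfrsf17 and Irf4 were at or below background in all 4 groups, while Sdc1, Ighm and Prdm1 were above it in all 4. Sdc1, which epithelial cells also express, was higher in ADM samples by 4.22. In bulk samples such as these, fewer cells of a type and less RNA per cell cannot be told apart, and the part of cell makeup in the results on ER genes was not tested.

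All values below are log2 signals of a probe set as deposited, or differences between group means on that scale. A gene was called at a Benjamini-Hochberg adjusted p under 0.05 over all genes of the comparison in limma, together with a log2 difference of at least 1. A ± beside a difference gives its standard error (SE) in this fit, with 3 arrays in each group.

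Of the ER genes called against adult acinar cells, all but Dnajc10 were lower. In ADM samples 24 of 44 members (54.5%) fell, against 4.22% of all genes called lower in that comparison, and 1 rose, against 12.5%. In embryonic acinar cells 11 of 44 (25%) fell, against 2.61% of all genes, and 0 rose in limma, against 10.0% of all genes, with 2 higher at an unadjusted p under 0.05. In tumor cells 29 of 44 (65.9%) fell, against 5.96% of all genes, and 1 rose, against 14.0%. The median member difference was -1.07 in ADM samples, -0.53 in embryonic cells and -1.33 in tumor cells, and over all genes the medians were -0.11, -0.09 and -0.09. These comparisons share the adult arrays. The members were chosen with earlier results of these data known, so the shares describe this list and are not a test of it. Scaling moved these counts: with arrays centred on housekeeping genes, 36 members fell in ADM samples, 19 in embryonic cells and 40 in tumor cells. The share of all genes called lower was then 34.3%, 9.42% and 34.9%, and calls that were higher made up 13.1%, 39.2% and 14.8% of all calls, against 74.7%, 79.3% and 70.2% as deposited.

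Members are bright genes, so the same counts were set against the 13024 genes whose mean over all arrays was above background. Of those, 6.47% were called lower and 21.0% higher in ADM samples, 3.87% lower and 16.4% higher in embryonic cells, and 9.67% lower and 23.7% higher in tumor cells. Adult acinar cells had the highest group mean for 38 of 44 members (86.4%), against 41.4% of all genes and 23.5% of the genes above background. The tumor mean was the lowest for 29 members (65.9%), against 22.6% of all genes and 24.3% of the genes above background. The ADM mean was the lowest for 13 (29.5%), against 25.5% and 15.5%. Only Ero1a and Dnajc10 (4.55%) were lowest in adult cells, against 27.3% and 43%. No member was lowest in embryonic cells, against 24.6% and 17.2%. The embryonic mean lay between the adult mean and both cultured means for 32 of 44 members (72.7%), against 14.8% of all genes and 11.9% of the genes above background.

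**Figure D1:**
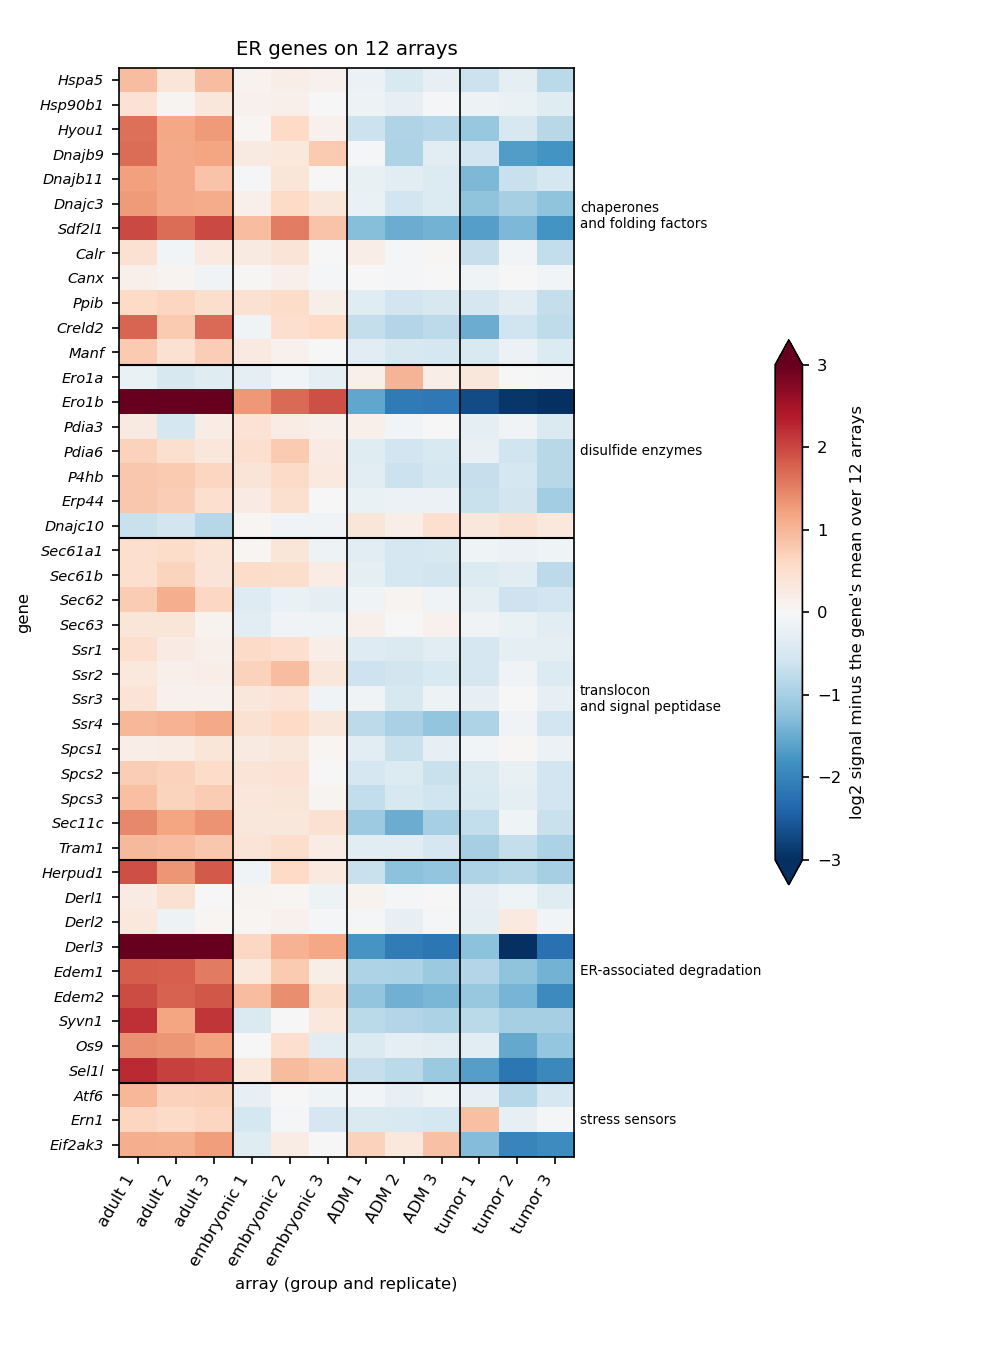
Each row is 1 of the 44 measured ER genes, ordered by role, and each column is 1 of the 12 arrays; colour gives the log2 signal minus that gene's mean over the 12 arrays, red above it and blue below it, with colours capped at 3 on either side. The 3 adult columns are red for most genes, the embryonic columns are paler, and the ADM and tumor columns are mostly blue, with Dnajc10 and Ero1a running the other way.

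The roles did not move by the same amount. Against adult cells, the median difference in ADM samples was -2.72 for the 9 degradation genes, -1.25 for the 12 chaperones, -0.97 for the 3 sensors, -0.91 for the 13 translocon and peptidase genes and -0.86 for the 7 disulfide enzymes. In tumor cells it was -2.78 for degradation, -1.62 for chaperones, -1.33 for sensors, -1.06 for disulfide enzymes and -1.03 for translocon genes. Embryonic cells had -1.29 for degradation, and the other roles lay between -0.97 and 0.00. Differences between roles were not tested.

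**Figure D2:**
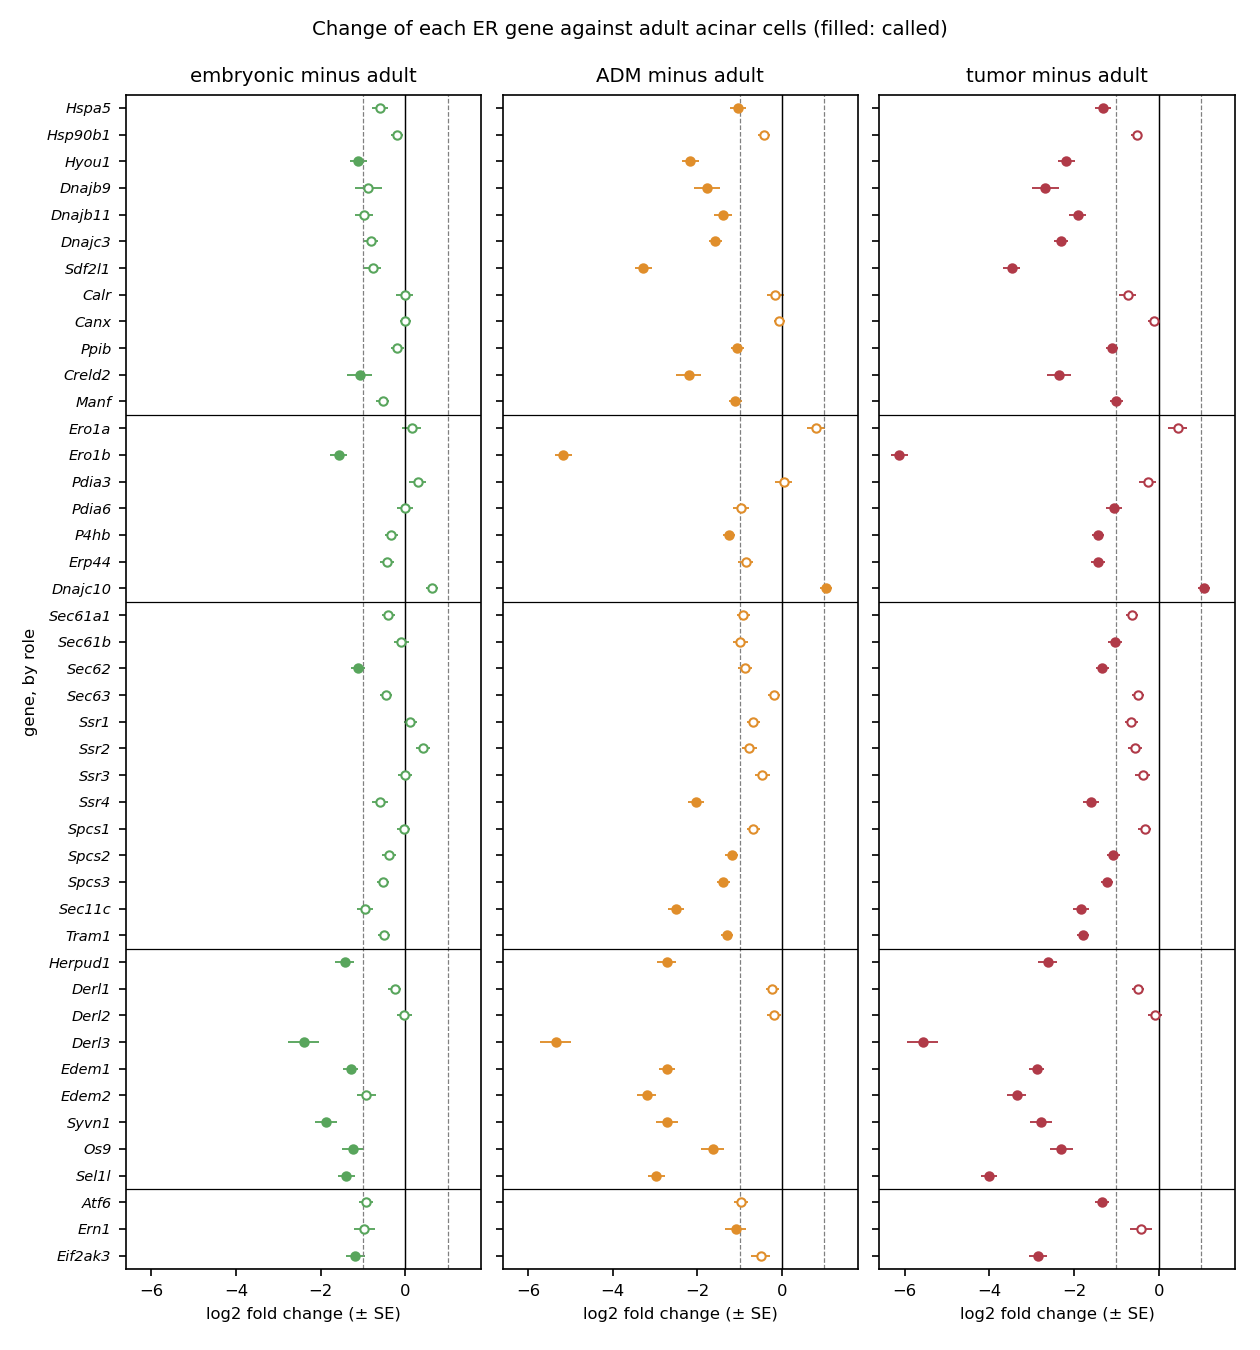
Points are log2 differences of each ER gene from adult acinar cells, with SE bars, in embryonic cells (left), ADM samples (middle) and tumor cells (right); filled points passed both thresholds, and dashed lines mark a log2 difference of 1 in either direction. Ero1b and Derl3 lie beyond -5 in ADM samples and tumor cells, while Canx, Derl2 and Pdia3 stay near 0 in all 3 panels.

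Among the chaperones and folding factors, 9 of 12 (75%) fell in ADM samples, 2 (16.7%) in embryonic cells and 9 (75%) in tumor cells. Over all genes 4.22%, 2.61% and 5.96% were called lower and 12.5%, 10.0% and 14.0% higher. In limma 0 of the 12 rose in any of these comparisons, with 0 higher at an unadjusted p under 0.05. Hspa5 encodes BiP, the main Hsp70 chaperone of the ER. Its values were 10.87, 10.33 and 10.88 on adult arrays, 10.05, 10.16 and 10.08 on embryonic, 9.78, 9.50 and 9.70 on ADM and 9.31, 9.66 and 9.15 on tumor arrays. Every adult array lay above every other array, and the ADM and tumor arrays overlapped. Hspa5 fell by 1.03 ± 0.18 in ADM samples (adjusted p = 0.000625) and by 1.32 ± 0.18 in tumor cells (adjusted p = 6.22e-05). In embryonic cells the difference was -0.60 (adjusted p = 0.0266), short of the size threshold. The ADM call sat at that threshold: without ADM replicate 2 the difference was -0.95, and it was also lost without adult replicate 1 or 3.

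The largest decrease among the chaperones was that of Sdf2l1, a stress-induced partner of BiP. Sdf2l1 read 10.44, 10.13 and 10.44 on adult arrays, 9.38, 9.99 and 9.32 on embryonic, 7.19, 6.97 and 7.03 on ADM and 6.80, 7.12 and 6.67 on tumor arrays. The embryonic arrays were just under the adult ones, and the cultured arrays lay far below both. The adult level was 9.67 times the ADM level (log2 difference -3.27 ± 0.20, adjusted p = 5.98e-08) and 11.1 times the tumor level (-3.47, adjusted p = 1.57e-08). In embryonic cells the difference was -0.77 (adjusted p = 0.00981).

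Hyou1, a large Hsp70-related protein that exchanges the nucleotide of BiP, read 10.22, 9.74 and 9.84 on adult, 8.62, 9.16 and 8.69 on embryonic, 7.93, 7.66 and 7.72 on ADM and 7.44, 8.09 and 7.73 on tumor arrays. It fell in all 3 groups, by 2.16 ± 0.21 in ADM samples, 1.11 in embryonic cells and 2.18 in tumor cells. Creld2, a stress-induced protein of the ER lumen, read 10.44, 9.47 and 10.40 on adult, 8.59, 9.20 and 9.29 on embryonic, 7.98, 7.81 and 7.91 on ADM and 7.20, 8.10 and 7.93 on tumor arrays. Adult replicate 2 was the low adult array for Creld2 but still above all embryonic arrays. Creld2 fell by 2.20 ± 0.29 in ADM samples, 1.08 in embryonic cells (adjusted p = 0.0138) and 2.36 in tumor cells. The embryonic call was lost without adult replicate 1 (adjusted p = 0.0529), adult replicate 3 (adjusted p = 0.0528) or embryonic replicate 1 (adjusted p = 0.0690), and that of Hyou1 was lost without adult replicate 1 (-0.97).

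Dnajc3, Dnajb9 and Dnajb11 carry a J domain, which steers BiP to its clients, and all 3 fell in both cultured groups. Dnajc3 was at 11.75, 11.62 and 11.58 on adult, 10.64, 11.07 and 10.81 on embryonic, 10.27, 9.90 and 10.06 on ADM and 9.26, 9.49 and 9.28 on tumor arrays. For Dnajc3 the 4 groups did not overlap, and the order was adult, embryonic, ADM, tumor. It fell by 1.57 ± 0.16 in ADM samples (adjusted p = 5.08e-06) and the tumor difference was -2.31 (adjusted p = 9.37e-08). Dnajb9 was at 10.51, 9.99 and 10.02 on adult, 9.12, 9.17 and 9.62 on embryonic, 8.79, 7.91 and 8.51 on ADM and 8.26, 7.17 and 7.06 on tumor arrays, with tumor replicate 1 within the ADM range. It fell by 1.77 ± 0.31 in ADM samples and 2.68 in tumor cells. Dnajb11 fell by 1.40 and 1.92.

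Not every chaperone moved. Canx (calnexin), which holds glycoproteins at the ER membrane, differed from adult cells by -0.06 ± 0.13 in ADM samples, 0.00 in embryonic cells and -0.11 in tumor cells, and its groups overlapped. Its soluble relative Calr (calreticulin) differed by -0.16 ± 0.20 in ADM samples and -0.73 in tumor cells (adjusted p = 0.0113). Hsp90b1, the Hsp90 of the ER, differed by -0.43 and -0.52. These 3 genes were not called, and the promoters of all 3 hold the ER stress element printed above. Ppib, a prolyl isomerase, fell by 1.06 in ADM samples and 1.10 in tumor cells, but its call was lost after quantile normalization, at -0.86 and -0.90. Manf, a small stress-induced ER protein, fell by 1.10 in ADM samples and 1.00 in tumor cells, the latter at the threshold and lost without any 1 of 4 arrays (adult replicate 1 or 3, tumor replicate 1 or 3).

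The disulfide enzymes held the widest range. Of 7 measured, 2 (28.6%) fell and 1 (14.3%) rose in ADM samples, against 4.22% and 12.5% of all genes. In embryonic cells 1 (14.3%) fell and 0 rose in limma, against 2.61% and 10.0%, with 1 higher at an unadjusted p under 0.05. In tumor cells 4 (57.1%) fell and 1 (14.3%) rose, against 5.96% and 14.0%. The shares that rose in ADM samples and tumor cells were near those of all genes. Ero1a and Ero1b encode the oxidases that recharge protein disulfide isomerase. Ero1b, the form known for its high expression in pancreas, read 11.53, 11.37 and 11.36 on adult arrays, 9.50, 9.90 and 10.14 on embryonic, 6.64, 6.07 and 6.06 on ADM and 5.51, 5.28 and 5.07 on tumor arrays. No pair of groups overlapped for Ero1b. The adult level was 2.98 times the embryonic level, 35.8 times the ADM level (log2 difference -5.16 ± 0.20, adjusted p = 1.42e-09) and 70.2 times the tumor level (-6.13, adjusted p = 1.8e-10).

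Ero1a, the widely expressed form, read 8.56, 8.27 and 8.39 on adult arrays, 8.50, 8.67 and 8.50 on embryonic, 8.91, 9.78 and 8.96 on ADM and 9.10, 8.76 and 8.70 on tumor arrays. ADM and tumor arrays all lay above the adult ones, and ADM replicate 2 stood 0.84 above the mean of the other 2 ADM arrays. Ero1a was not called: the difference from adult cells was 0.81 ± 0.22 in ADM samples (adjusted p = 0.0101), 0.15 in embryonic cells (adjusted p = 0.620) and 0.45 in tumor cells (adjusted p = 0.124). A second probe set for Ero1a gave 0.72 in ADM samples.

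P4hb, protein disulfide isomerase itself, read 11.75, 11.73 and 11.59 on adult, 11.33, 11.51 and 11.24 on embryonic, 10.62, 10.29 and 10.41 on ADM and 10.24, 10.42 and 10.10 on tumor arrays. Embryonic arrays were just under the adult arrays and the cultured arrays were lower than both. P4hb fell by 1.25 ± 0.15 in ADM samples (adjusted p = 2.39e-05) and by 1.44 in tumor cells (adjusted p = 4.56e-06), and the embryonic difference was -0.33 (adjusted p = 0.112). Erp44, which retains the Ero1 oxidases in the early secretory pathway, read 8.80, 8.73 and 8.51 on adult, 8.25, 8.49 and 8.02 on embryonic, 7.81, 7.83 and 7.82 on ADM and 7.33, 7.44 and 6.96 on tumor arrays, with no overlap between groups. Erp44 fell in tumor cells, by 1.44 ± 0.17, and its ADM difference was -0.86 (adjusted p = 0.00136). For Pdia6, an isomerase, the arrays read 10.14, 9.91 and 9.79 in adult, 9.94, 10.23 and 9.68 in embryonic, 9.07, 8.87 and 8.99 in ADM and 9.22, 8.85 and 8.60 in tumor samples. Fresh and cultured arrays of Pdia6 did not overlap, while adult and embryonic arrays did. Its tumor difference, -1.06 ± 0.19, was called but lost without adult replicate 1 (-0.96) or tumor replicate 3 (-0.91). The ADM difference of Pdia6 was -0.97 (adjusted p = 0.00132), short of the size threshold. It passed after cyclic loess (-1.12) and housekeeping centring (-1.695), and without ADM replicate 1 (-1.02) or adult replicate 3 (-1.05). Pdia3, the isomerase that works with calnexin and calreticulin, differed by 0.04 ± 0.20 in ADM samples and -0.26 in tumor cells.

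Dnajc10, a reductase with a J domain that opens wrong disulfides before degradation, was the only member called higher. It read 8.27, 8.38 and 8.06 on adult arrays, 8.98, 8.83 and 8.83 on embryonic, 9.30, 9.13 and 9.43 on ADM and 9.27, 9.39 and 9.25 on tumor arrays. Adult arrays were the lowest, embryonic arrays came next, and the cultured arrays were highest and overlapped each other. Dnajc10 rose by 1.05 ± 0.14 in ADM samples (adjusted p = 7.29e-05) and 1.07 in tumor cells (adjusted p = 4.49e-05), and was 0.64 higher in embryonic cells. The size depended on scaling: the ADM and tumor differences were 0.88 and 0.84 after quantile normalization, 0.84 and 0.78 after cyclic loess, and 0.32 and 0.31 when arrays were centred on housekeeping genes. None of these passed the size threshold, and the ADM call was also lost without adult replicate 3 (0.96) or ADM replicate 3 (0.98), the tumor call without adult replicate 3 (0.98).

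**Figure D3:**
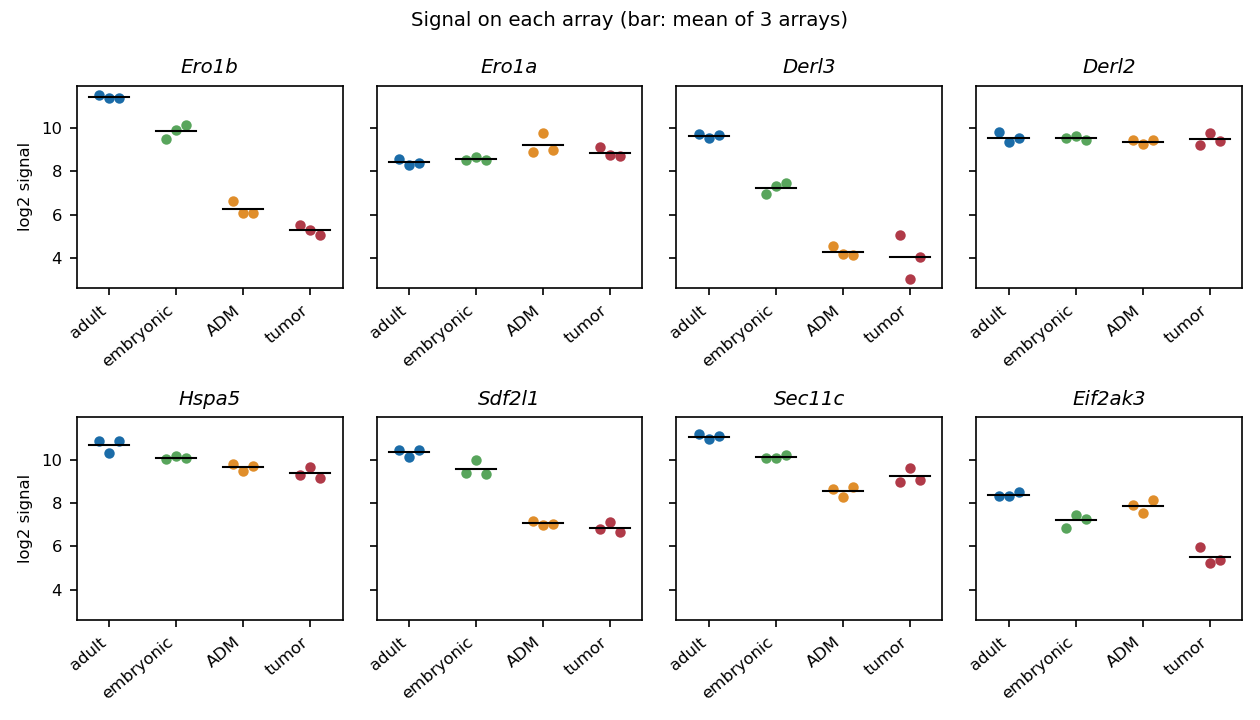
Each panel shows 1 gene on the 12 arrays, with log2 signal on the vertical axis, a point for each array and a bar at the mean of each group's 3 arrays. Ero1b and Derl3 step down from adult to embryonic to the cultured groups while Derl2 stays between 9.22 and 9.80, Ero1a is lowest in adult cells, Sec11c is lower in ADM than in tumor samples, and Eif2ak3 is lowest in tumor cells, at 5.25 to 5.95.

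The translocon and signal peptidase genes ranged from differences near 0 to a 5.71-fold decrease. In ADM samples 5 of 13 (38.5%) fell, in embryonic cells 1 (7.69%) and in tumor cells 7 (53.8%). Over all genes 4.22%, 2.61% and 5.96% were called lower and 12.5%, 10.0% and 14.0% higher. All 13 differences were negative in ADM samples and in tumor cells, and 0 of 13 rose in limma in these 2 comparisons, with 0 higher at an unadjusted p under 0.05. Embryonic cells had 0 risen and 1 higher at that p. Sec11c, a catalytic subunit of signal peptidase, read 11.18, 10.93 and 11.08 on adult arrays, 10.07, 10.07 and 10.20 on embryonic, 8.64, 8.26 and 8.75 on ADM and 8.99, 9.62 and 9.08 on tumor arrays. No pair of groups overlapped, and the ADM arrays were the lowest. The adult level was 5.71 times the ADM level (log2 difference -2.51 ± 0.19, adjusted p = 3.81e-07) and 3.56 times the tumor level (-1.83, adjusted p = 3.86e-06), and the embryonic difference was -0.95.

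Ssr4, a subunit of the translocon-associated TRAP complex, read 11.11, 11.15 and 11.25 on adult, 10.57, 10.71 and 10.45 on embryonic, 9.34, 9.15 and 8.94 on ADM and 9.19, 10.00 and 9.53 on tumor arrays. Cultured arrays were below the fresh ones and overlapped each other. It fell by 2.03 ± 0.19 in ADM samples and 1.60 in tumor cells. The other TRAP subunits were not called against adult cells: Ssr1, Ssr2 and Ssr3 differed by -0.68, -0.77 and -0.47 in ADM samples and by -0.65, -0.56 and -0.38 in tumor cells. A second probe set for Ssr1, with a mean of 9.47 over all arrays, gave -1.06 in ADM samples and -0.61 in tumor cells.

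Spcs3, an accessory subunit of signal peptidase, read 10.85, 10.61 and 10.70 on adult, 10.28, 10.31 and 10.01 on embryonic, 9.21, 9.45 and 9.34 on ADM and 9.49, 9.64 and 9.36 on tumor arrays, and it fell by 1.39 ± 0.15 and 1.22 in the cultured groups. Spcs2 fell by 1.19 and 1.07, the ADM call being lost when its 2 probe sets were averaged (-0.98) and the tumor call without tumor replicate 3 (-0.99), and Spcs1 differed by -0.67 and -0.33. Tram1, a membrane protein beside the translocon, read 11.68, 11.63 and 11.52 on adult, 11.10, 11.25 and 10.95 on embryonic, 10.38, 10.37 and 10.21 on ADM and 9.73, 10.00 and 9.77 on tumor arrays, with no overlap between groups. It fell by 1.29 ± 0.14 in ADM samples and 1.78 in tumor cells. Of the channel itself, Sec61a1 differed by -0.91 in ADM samples and -0.63 in tumor cells, and neither was called. Sec61b, a small channel subunit, fell by 1.03 in tumor cells, a call lost without adult replicate 2 (-0.96) or tumor replicate 3 (-0.89). In ADM samples its 2 probe sets gave -0.98 and, for the dimmer one, -1.40. Sec62, which serves post-translational import, fell in embryonic cells (-1.12 ± 0.16) and tumor cells (-1.33), the embryonic call being lost without adult replicate 2. Its ADM difference was -0.87 (adjusted p = 0.000784), short of the size threshold. That difference passed it after quantile normalization (-1.02), cyclic loess (-1.15) and housekeeping centring (-1.60).

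The translocon genes differed from the other roles in which cultured group was lower. The ADM mean was the lowest of the 4 for 9 of 13 translocon and peptidase genes. The tumor mean was the lowest for 11 of 12 chaperones, 5 of 7 disulfide enzymes and 7 of 9 degradation genes. Over all genes the ADM mean was the lowest for 25.5% and the tumor mean for 22.6%. Over the genes above background these shares were 15.5% and 24.3%. The order of ADM and tumor means by role was not tested, and most of the differences behind it are small. For Sec11c the tumor level was 0.68 ± 0.19 above the ADM level (adjusted p = 0.0246), under the size threshold.

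Among the roles, the 9 listed degradation genes had the largest median decrease in each comparison with adult cells. In ADM samples 7 of 9 (77.8%) fell, in embryonic cells 6 (66.7%) and in tumor cells 7 (77.8%). Over all genes 4.22%, 2.61% and 5.96% were called lower and 12.5%, 10.0% and 14.0% higher. In limma 0 of the 9 rose in any of these comparisons, with 0 higher at an unadjusted p under 0.05. A further list of 16 measured degradation genes, described below, moved less. Its medians were -0.44 in ADM samples, -0.43 in embryonic cells and -0.37 in tumor cells. Derl3, a derlin of the channel that exports failed proteins, read 9.73, 9.52 and 9.66 on adult arrays, 6.93, 7.34 and 7.46 on embryonic, 4.54, 4.20 and 4.13 on ADM and 5.07, 3.03 and 4.07 on tumor arrays. Adult and embryonic arrays stood apart from each other and from the cultured arrays. The tumor arrays had a standard deviation of 1.02, the widest of any member in any group, and 1 of them read below the background level. The adult level was 5.25 times the embryonic level, 40.7 times the ADM level (log2 difference -5.35 ± 0.37, adjusted p = 1.94e-07) and 47.8 times the tumor level (-5.58, adjusted p = 6.68e-08). Its relatives Derl1 and Derl2 were not called: Derl2 differed from adult cells by -0.18 ± 0.17 in ADM samples, -0.02 in embryonic cells and -0.09 in tumor cells, and Derl1 by -0.23, -0.25 and -0.49.

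Sel1l, the adaptor of the ubiquitin ligase complex, read 11.58, 11.40 and 11.36 on adult, 9.67, 10.31 and 10.18 on embryonic, 8.65, 8.54 and 8.24 on ADM and 7.71, 7.18 and 7.41 on tumor arrays. The 4 groups did not overlap. It fell in all 3 groups, the adult level being 2.63 times the embryonic, 7.84 times the ADM (log2 difference -2.97 ± 0.20) and 16.1 times the tumor level (-4.01, adjusted p = 4.73e-09). Syvn1 (HRD1), the ubiquitin ligase itself, fell by 2.72 ± 0.25 in ADM samples, 1.87 in embryonic cells and 2.78 in tumor cells. Herpud1, a membrane protein that assembles this complex, read 11.37, 10.76 and 11.29 on adult, 9.34, 10.05 and 9.74 on embryonic, 8.77, 8.21 and 8.26 on ADM and 8.53, 8.59 and 8.44 on tumor arrays. Cultured arrays of Herpud1 overlapped each other and lay under all embryonic ones. Herpud1 fell by 2.73 ± 0.22 in ADM samples, 1.43 in embryonic cells and 2.62 in tumor cells.

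The genes that read sugar chains on failed glycoproteins fell as well. Edem2, which trims the first mannose, read 10.46, 10.27 and 10.36 on adult, 9.42, 9.88 and 9.02 on embryonic, 7.32, 7.05 and 7.12 on ADM and 7.35, 7.09 and 6.58 on tumor arrays. It fell by 3.20 ± 0.23 in ADM samples (adjusted p = 2.56e-07) and 3.36 in tumor cells, with -0.92 in embryonic cells, just short of the size threshold. Edem1 fell by 2.72, 1.29 and 2.89 in ADM, embryonic and tumor samples. Os9, a lectin that hands trimmed glycoproteins to Sel1l, read 9.70, 9.66 and 9.54 on adult, 8.32, 8.84 and 8.03 on embryonic, 7.91, 8.06 and 8.02 on ADM and 8.01, 6.81 and 7.17 on tumor arrays. For Os9 the lowest embryonic array lay within the ADM range. It fell by 1.64 ± 0.27 in ADM samples, 1.24 in embryonic cells and 2.30 in tumor cells.

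Of the 3 stress sensors, Atf6 and Ern1 had similar differences in ADM samples and embryonic cells, but not in tumor cells. Against adult cells 1 of 3 (33.3%) fell in ADM samples, 1 (33.3%) in embryonic cells and 2 (66.7%) in tumor cells. Over all genes 4.22%, 2.61% and 5.96% were called lower and 12.5%, 10.0% and 14.0% higher. In limma 0 sensors rose in any of these comparisons, with 0 higher at an unadjusted p under 0.05. Eif2ak3 (PERK), the kinase that slows translation, read 8.33, 8.31 and 8.49 on adult arrays, 6.87, 7.47 and 7.25 on embryonic, 7.93, 7.56 and 8.12 on ADM and 5.95, 5.25 and 5.36 on tumor arrays. No pair of groups overlapped, and here the ADM arrays were above the embryonic ones. The adult level was 7.24 times the tumor level (log2 difference -2.86 ± 0.22, adjusted p = 2.58e-07), and Eif2ak3 fell by 1.18 in embryonic cells. In ADM samples the difference was -0.51 (adjusted p = 0.0862).

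Atf6, the sensor that becomes a transcription factor once cleaved, read 8.94, 8.63 and 8.66 on adult, 7.70, 7.93 and 7.80 on embryonic, 7.85, 7.68 and 7.80 on ADM and 7.70, 7.09 and 7.44 on tumor arrays. The adult arrays stood alone above the rest, which overlapped. Atf6 fell in tumor cells, by 1.33 ± 0.17 (adjusted p = 2.85e-05). Its ADM and embryonic differences, -0.97 and -0.93, were short of the size threshold. The ADM difference passed it without ADM replicate 1, adult replicate 2 (-1.02) or adult replicate 3 (-1.01). Both passed after quantile normalization (-1.17 and -1.02), cyclic loess (-1.28 and -1.12) and housekeeping centring (-1.69 and -1.32). Ern1 (IRE1), the sensor that splices Xbp1 mRNA, read 7.73, 7.65 and 7.74 on adult, 6.56, 7.05 and 6.59 on embryonic, 6.66, 6.64 and 6.55 on ADM and 8.0, 6.84 and 7.03 on tumor arrays. Tumor replicate 1 lay above every adult array and the other 2 tumor arrays below them. Ern1 fell in ADM samples, by 1.09 ± 0.25 (adjusted p = 0.00391), and differed by -0.97 in embryonic cells and -0.42 in tumor cells (adjusted p = 0.213). Its embryonic difference passed the size threshold under the same scalings (-1.22, -1.21 and -1.36), and its tumor difference only with housekeeping centring (-1.17).

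Few of these genes were called between tumor cells and ADM samples, both cultured. Of 44 members 2 (4.55%) were lower in tumor cells, against 5.07% of all genes, and 0 were higher in limma, against 3.28%. The share called lower was near that of all genes and under that of the genes above background, of which 8.42% were lower and 5.41% higher. At an unadjusted p under 0.05 in limma, without the size threshold, 13 of 44 members were lower and 4 higher. Over all 22180 genes these counts were 2637 lower and 3023 higher, so the members leaned lower there. The median member difference was -0.16, against 0.06 over all genes. The called members were Eif2ak3, with -2.35 ± 0.22 (adjusted p = 5.9e-06), and Sel1l, with -1.04 ± 0.20 (adjusted p = 0.00247). The Sel1l call was lost without ADM replicate 1 (-0.96) or tumor replicate 2 (-0.92). Ero1b was at -0.97 ± 0.20 (adjusted p = 0.00518), just short of the threshold, and passed it without tumor replicate 1 (-1.08) or ADM replicate 2 (-1.06). The count of members called lower was 5 without tumor replicate 1, 4 without ADM replicate 2, and 1 without ADM replicate 1 or without tumor replicate 2. Acinar marker levels moved much further than the ER genes, from 8.03 to 8.90 on ADM arrays down to 3.61 to 3.85 on tumor arrays.

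Against embryonic acinar cells, 12 of 44 members (27.3%) fell in ADM samples, against 4.91% of all genes, and 0 rose in limma, against 4.55%, with 3 higher at an unadjusted p under 0.05. Of the genes above background 7.61% were lower and 7.58% higher. Degradation genes made up 5 of the 12 and chaperones and translocon genes 3 each. The largest decreases were those of Ero1b (-3.59 ± 0.20), Derl3 (-2.95), Sdf2l1 (-2.50) and Edem2 (-2.28). In tumor cells 18 of 44 members (40.9%) fell against embryonic cells, beside 7.80% of all genes, and 0 rose in limma, beside 6.53%, with 2 higher at an unadjusted p under 0.05. Of the genes above background 12.3% were lower and 10.9% higher. Ero1b had the largest decrease here too (-4.56 ± 0.20), followed by Derl3 (-3.19), Sdf2l1 (-2.70) and Sel1l (-2.62). Single arrays decided the calls of Creld2 and Hyou1 in the first of these comparisons and of Erp44, Hyou1, Os9, Pdia6 and Ssr4 in the second. Ssr2, another TRAP subunit, fell by 1.20 ± 0.17 in ADM samples against embryonic cells. Markers of other cells moved with both comparisons. In ADM samples 8 of 9 endocrine, 9 of 10 endothelial, 4 of 5 mesothelial and 4 of 10 fibroblast and stellate markers fell against embryonic cells, with median differences of -2.78, -1.998, -1.90 and -0.86. In tumor cells 8 of 9, 10 of 10, 4 of 5 and 10 of 10 fell.

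How the ADM difference divided between embryonic and cultured cells varied by gene. Sdf2l1, Edem2 and Ssr4 differed by -0.77, -0.92 and -0.59 in embryonic against adult cells and by -2.50, -2.28 and -1.43 in ADM samples against embryonic cells. Syvn1, Os9 and Atf6 differed by -1.87, -1.24 and -0.93 in the first comparison and by -0.84, -0.40 and -0.03 in the second. These genes were picked after their values were seen, the comparisons share the embryonic arrays, and the contrast between the sets was not tested.

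Other genes of the same pathway were read from 7 further lists. Over all genes, 4.22% were called lower and 12.5% higher in ADM samples. In embryonic cells these shares were 2.61% and 10.0%, and in tumor cells 5.96% and 14.0%. The signal recognition particle and its receptor bring ribosomes to the translocon. Of 7 measured genes 4 (57.1%) were lower in both ADM samples and tumor cells. They were led by Srprb (-1.73 ± 0.21 in ADM samples) and Srpr (-1.87 in tumor cells). In embryonic cells 0 of the 7 were called in limma, with 5 lower at an unadjusted p under 0.05. Cargo export genes pack proteins into vesicles leaving the ER. In ADM samples 10 of 27 (37%) were lower and 1 (3.7%) higher. In embryonic cells 2 (7.41%) were lower and 1 (3.7%) higher, and in tumor cells 12 (44.4%) were lower and 2 (7.41%) higher. Tmed11, a cargo receptor of the p24 family, read 11.53, 11.52 and 11.56 on adult arrays and 4.30, 3.55 and 3.21 on ADM arrays, 2 of which were below background. It was called lower in ADM samples, where no fold is given, and was at least 241-fold lower in tumor cells, where all 3 arrays were below background. Tmed6, of the same family, fell by 5.57 in ADM samples and was at least 337-fold lower in tumor cells, again below background.

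Other lists were mixed, and are read against the shares of all genes given above. Among further disulfide and proline enzymes 10 of 23 (43.5%) rose and 5 (21.7%) fell in ADM samples. In embryonic cells 9 (39.1%) rose and 2 (8.7%) fell, and in tumor cells 6 (26.1%) rose and 6 (26.1%) fell. Plod2, a collagen lysyl hydroxylase, was at or below background in adult cells and was at least 29.0-fold higher in ADM samples, 12.99-fold in embryonic cells and 4.52-fold in tumor cells. Fibroblast and stellate markers, given above, were higher on ADM and embryonic arrays than on adult ones but not on tumor arrays. Fkbp11, a prolyl isomerase found in secretory cells, fell by 3.57 ± 0.27 in ADM samples and 2.42 in tumor cells, with -0.33 in embryonic cells. Oligosaccharyltransferase and glycan-trimming genes had 2 of 19 (10.5%) higher and 4 (21.1%) lower in ADM samples. In embryonic cells the counts were 1 (5.26%) and 1 (5.26%), and in tumor cells 2 (10.5%) and 4 (21.1%). The shares called higher did not exceed those of all genes. Edem3, another gene of the Edem family, fell by 1.61, 1.12 and 2.89, while Tusc3, an oligosaccharyltransferase subunit, rose by 1.42, 1.29 and 1.99 in ADM, embryonic and tumor samples. The embryonic call of Edem3 was lost without embryonic replicate 1 (-0.94), and the ADM and embryonic calls of Tusc3 with housekeeping centring (0.70 and 0.90).

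Further translocon genes had 3 of 16 (18.8%) higher and 3 (18.8%) lower in ADM samples. In embryonic cells 1 (6.25%) was higher and 0 lower (4 lower at an unadjusted p under 0.05 in limma). In tumor cells 2 (12.5%) were higher and 1 (6.25%) lower, both near the shares of all genes. Sil1, which like Hyou1 exchanges the nucleotide of BiP, fell by 1.59 in ADM samples and 1.62 in tumor cells. Tram2, a relative of Tram1, rose by 1.81 in ADM samples and 1.88 in embryonic cells and differed by 0.18 in tumor cells. Further degradation genes had 2 of 16 (12.5%) higher and 2 (12.5%) lower in ADM samples, where the share called higher was near that of all genes. In embryonic cells 0 were called in limma (3 higher and 8 lower at an unadjusted p under 0.05). In tumor cells 1 (6.25%) was higher and 3 (18.8%) were lower. Ngly1, which strips sugars from exported glycoproteins, fell by 1.73 in ADM samples and 1.17 in tumor cells. Ubxn4, which recruits the extracting ATPase, fell by 1.58 in tumor cells.

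Among the factors downstream of the sensors calls were mostly lower, but the medians were small. Of 15 measured, 3 (20%) fell in ADM samples, against 4.22% of all genes, and 1 (6.67%) rose, against 12.5%. In embryonic cells 1 (6.67%) fell, against 2.61%, and 0 rose in limma, against 10.0%, with 2 higher at an unadjusted p under 0.05. In tumor cells 5 (33.3%) fell, against 5.96%, and 1 (6.67%) rose, against 14.0%. The 15 genes had median differences of 0.21, -0.21 and -0.01 in ADM, embryonic and tumor samples. Chac1, a glutathione-degrading target of the PERK branch, fell by 2.85 ± 0.34, 2.89 and 3.86. Xbp1, the transcription factor made active by Ern1, read 9.70, 10.01 and 9.41 on adult, 8.94, 9.33 and 8.88 on embryonic, 9.21, 8.92 and 8.99 on ADM and 7.75, 7.10 and 6.56 on tumor arrays. The tumor arrays of Xbp1 stood well below the rest. It fell by 2.57 ± 0.26 in tumor cells (adjusted p = 3.75e-06), and differed by -0.67 in ADM samples (adjusted p = 0.0621) and -0.66 in embryonic cells (adjusted p = 0.0752). The arrays give total Xbp1 signal, and the spliced form was not measured separately here.

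**Figure D4:**
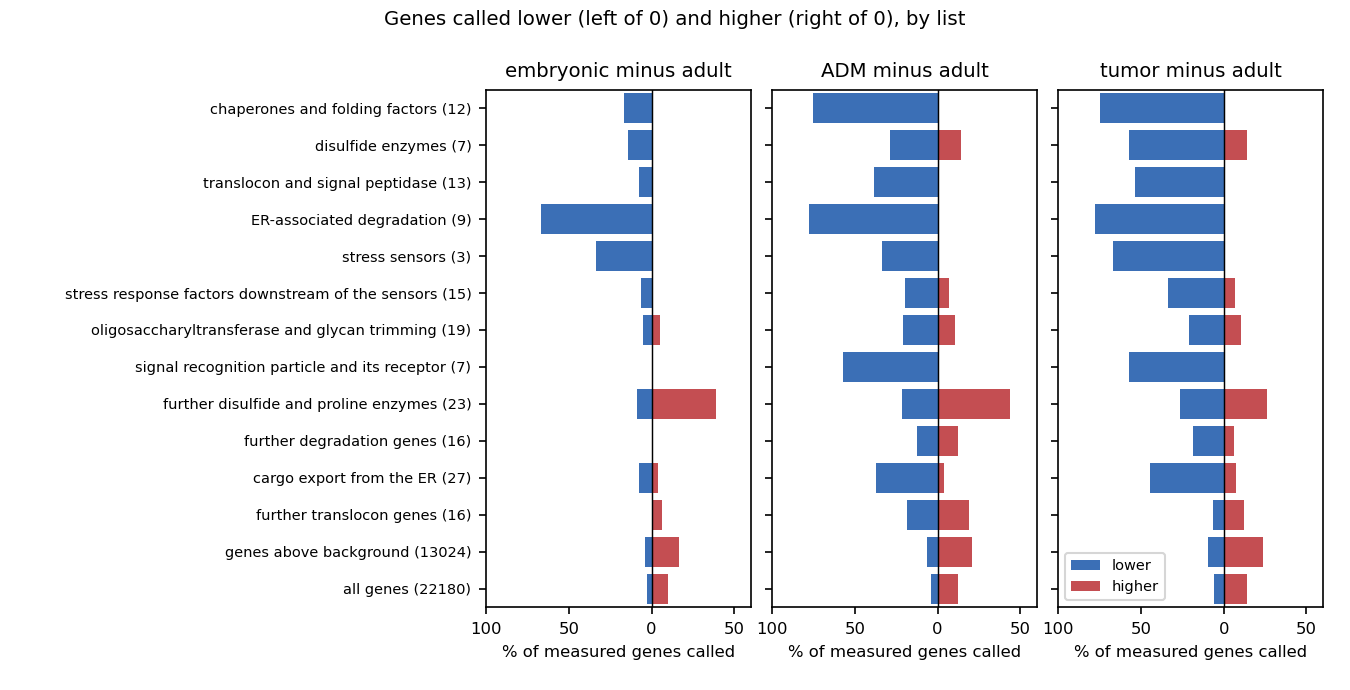
Bars give the percentage of measured genes called lower (left of 0, blue) or higher (right of 0, red) against adult acinar cells, for the 5 roles, the 7 further pathway lists, the genes above background and all genes, with the number measured in brackets. Degradation genes and chaperones have the longest blue bars in ADM samples and tumor cells, at 77.8% and 75%, and further disulfide and proline enzymes have the longest red bars.

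The members with an ER stress element in the promoter had a median difference of -1.30 in ADM samples, with a range of -5.35 to -0.06, and 6 of 10 fell. Those with a promoter in the table and no element had -1.06, with a range of -3.27 to 1.05, and 13 of 25 measured fell. In tumor cells the medians were -1.81 and -1.33, with 7 of 10 and 16 of 25 fallen, and in embryonic cells -0.70 and -0.46. Over all genes 4.22% were called lower in ADM samples and 5.96% in tumor cells. The ranges overlapped widely in each comparison. The Ero1b and Derl3 elements shown above belong to the 2 members that changed most in ADM samples and in tumor cells. In embryonic cells Derl3 (-2.39) and Syvn1 (-1.87), which also holds the element, changed most. The elements of Canx, Calr and Hsp90b1 belong to members that were not called in any comparison with adult cells.

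Replicates were tight for most members. The median standard deviation over 44 members was 0.15 in adult, 0.21 in embryonic, 0.12 in ADM and 0.22 in tumor samples, and over the genes above background it was 0.26, 0.19, 0.16 and 0.25. Adult replicate 2 lay at least 0.5 below the mean of the other 2 adult arrays for 5 members (Syvn1, Creld2, Pdia3, Herpud1 and Hspa5) and above by that much for 0, while 13.3% of the genes above background were as low there. Tumor replicate 1 stood at least 0.5 above the other 2 tumor arrays for 6 members (Derl3, Dnajb9, Ern1, Os9, Eif2ak3 and Edem2) and below for 3 (Creld2, Dnajb11 and Ssr4), while 15.04% of the genes above background were as high there and 15.4% as low. Embryonic replicate 2 was high by that much for 6 members (Os9, Edem2, Sdf2l1, Edem1, Herpud1 and Hyou1), beside 5.39% of the genes above background. Embryonic replicate 1 was low for 5 (Creld2, Syvn1, Sel1l, Herpud1 and Ero1b), beside 4.45%.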

How the data were processed

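Total RNA was labelled with biotin and hybridised to Affymetrix arrays, per the labels' protocols. The authors deposited 1 processed value per probe set and array, with 2 decimals, between 1.56 and 13.67. These deposited values were read as log2 signal from their range, and the software and normalization the authors used to make the log2 values are not given in the sources used here. Of 41345 probe sets, 23521 carried 1 gene symbol in the platform annotation, 1814 several and 16010 none, and the first kind gave 22180 genes.

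All 12 arrays were fitted on group means without a replicate block in limma 3.58.1 under R 4.3.3 (lmFit, contrasts.fit, eBayes), with 8 residual and 5.02 prior degrees of freedom. 6 two-sided comparisons were read, each with Benjamini-Hochberg adjustment over all genes. The number of arrays limits the precision. Background was set from 1394 olfactory and vomeronasal receptor genes, as percentile 95 of their group means, and "at least" folds were computed against it.

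Members and lists were chosen with earlier results of these data known. Array values were given for Ero1a, Ero1b, Hspa5, the sensors and, in each other role, the 4 members with the largest absolute difference in ADM against adult and the 2 with the largest in tumor against ADM samples, and further lists name the 2 called genes with the largest differences from adult cells. Replicate numbers did not pair the samples: correlations of deviations ran from -0.06 to 0.17 over 18 pairs. Probe sets with several symbols were left out. Alternatives were quantile and cyclic loess normalization, centring on 12 housekeeping genes, leaving out dim genes, averaging probe sets, a replicate block, a trended and robust prior, only the 2 groups compared, and leaving out each array.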

Additional observations from a re-analysis of the deposited data

How the results depend on the processing

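Leaving out dim genes, averaging probe sets, the trended and robust prior and fits of only the 2 groups compared gave the same counts of members called as reported. Same-numbered samples shared only a number, and a fit with the replicate number as a block gave 24 members lower in ADM samples, 11 in embryonic cells and 29 in tumor cells against adult cells, the counts without it. Scaling mattered more. Median differences of all genes and of members from adult cells in ADM samples, -0.11 and -1.07 as deposited, were -0.02 and -1.11 after quantile normalization, 0.00 and -1.25 after cyclic loess and -0.83 and -1.80 after centring on housekeeping genes. The share of calls that were higher, 74.7%, became 59.5%, 59.4% and 13.1%. Members called higher numbered 0 in ADM samples and 0 in tumor cells under each of these 3. Over all genes 9.09%, 8.58% and 5.17% were called higher in ADM samples, and 10.5%, 9.45% and 6.07% in tumor cells. Members called lower in embryonic against adult cells became 17 with cyclic loess, against 3.54% of all genes, and 19 with housekeeping centring, against 9.42%. Housekeeping centring also gave 23 for ADM and 29 for tumor samples against embryonic cells, beside 8.45% and 11.8% of all genes. No difference of a member reversed once called. Leaving out 1 array at a time gave 23 to 27 members lower in ADM, 9 to 14 in embryonic and 25 to 29 in tumor samples against adult cells, and 0 to 1 higher in ADM and in tumor samples. The ranges were 1 to 5 lower for tumor against ADM, 10 to 14 for ADM against embryonic and 13 to 22 for tumor against embryonic samples. Shares of all genes are not given here for the fits without 1 array. Dim probe sets limit Derl3 in tumor cells, where signal was near background.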
